A study of Mus musculus with 9 samples.

Results

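The Zfp genes described here are the mouse genes named Zfp and a number, without the run Zfp978 to Zfp993, that held at least 100 counts in at least 3 of 9 RNA-seq libraries of mouse embryonic fibroblasts (MEFs). Of the 47937 genes in the count table, 358 carry such a name and 277 reached that minimum. The libraries came from 3 genotypes with 3 replicates each. WT cells were the parental E1c clone, MEFs with a conditional Eset1 allele and a Cre that tamoxifen switches on, and both mutants share that background. The labels name no tamoxifen treatment. S1S2 cells were a clone (B1) of this line in which CRISPR/Cas9 disrupted Suv39h1 and Suv39h2. G9Gl cells were a clone (H7) in which it disrupted the genes of G9a and Glp, Ehmt2 and Ehmt1. Suv39h enzymes set H3K9me3 at pericentric heterochromatin and repeats, and G9a and Glp set H3K9me1 and H3K9me2 in euchromatin. The clones are those the study's methods name for these gene pairs, and the labels give genotypes only. If each mutant is a single clone, as taken here, genotype and clone cannot be told apart in any comparison, and p-values measure the spread between cultures of a line.

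Most Zfp genes encode proteins with C2H2 zinc fingers, loops of a protein chain folded around a zinc ion that read DNA or RNA. Many also carry a KRAB domain, which binds Trim28 and, through it, the H3K9 methyltransferase Setdb1, and such proteins silence retroelements and protect imprints. KRAB genes multiplied by tandem duplication and sit in clusters, and the 3' exons of many such clusters themselves carry H3K9me3. The question here was how the expression of the gene family, and of each chromosome cluster, differed between WT, S1S2 and G9Gl cells.

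Libraries held 21319778 to 32157623 counts. Suv39h1 mRNA was at 108 ± 4.59 CPM (counts scaled to the TMM-adjusted library size, mean ± SD, n = 3) in WT and 41.9 ± 3.14 in S1S2 cells, whereas Suv39h2 was at 33.9 ± 0.671 and 55.2 ± 2.34. Ehmt2 fell from 125 ± 9.63 to 54.3 ± 2.82 CPM in G9Gl cells, and Ehmt1 from 104 ± 1.78 to 50.2 ± 1.62. A frameshift need not remove mRNA, so these levels check the labels only in part. All 10 fibroblast markers examined were above 3 counts in all libraries. Their summed level was 10285 to 11820 CPM in WT, 7569 to 7640 in S1S2 and 8173 to 9046 in G9Gl cells. Against WT, 8 of the 10 were lower and 1 (Vim) higher in S1S2 cells at adjusted p of at most 0.01 (edgeR), and in G9Gl cells 7 were lower and 2 higher (Thy1 and S100a4). Col3a1 was at 1527, 190 and 844 CPM in WT, S1S2 and G9Gl cells, Col1a2 at 2395, 395 and 2030, Vim at 1458, 2399 and 1250, and Thy1 at 4.98, 2.05 and 38.3. The 4 epithelial markers summed to 4.67 to 5.55 CPM in S1S2 against at most 0.548 in the other libraries, and this was mostly Krt8, at 4.68 CPM. The 2 neuronal markers summed to 24.9 to 27.0 CPM in WT, 37.8 to 42.3 in S1S2 and 18.5 to 26.5 in G9Gl cells, mostly Tubb3. The other, Map2, went the other way in S1S2 cells, from 0.814 CPM in WT to 0.244 (adjusted p = 0.00561 by edgeR). The 3 pluripotent markers summed to 0.397 to 0.419 CPM in WT, 0.0470 to 0.292 in S1S2 and 0.491 to 0.588 in G9Gl cells. Of these, Pou5f1 had no count in any library, and Nanog was at 0.405, 0.158 and 0.539 CPM in WT, S1S2 and G9Gl cells. Of the 2 endothelial markers, Cdh5 was at 0 CPM in WT and 1.01 in G9Gl cells (adjusted p = 4.26e-06 by edgeR). Pecam1, the other, did not rise there (0.128 and 0.0925 CPM). These marker levels move with the genotype, and their part in the results below was not tested.

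The 277 members were low to moderate in level. Their median was 4.76 CPM per kb of transcript, against 11.5 for the 10927 other genes with the same minimum and a known length. The highest levels per kb were those of Zfp207 (80.1 CPM per kb), a spindle assembly factor, the RNA-binding protein gene Zfp106 (44.6) and Zfp91 (38.0), which encodes a ubiquitin ligase. Zfp72 was lowest, at 0.716 CPM per kb. Of the members, 274 are annotated as protein coding, 2 as transcribed pseudogenes and 1 as a long intergenic RNA. A count of C2H2 fingers in the annotated coding sequences gave a median of 10.5 and a highest number of 36, in Zfp142. An exact KRAB signature was found in 123 members, and 152 had it with up to 1 mismatch. All 277 entered the tests, and 244 had at least 100 counts in all 9 libraries. Just inside the minimum, with 3 libraries, lay Zfp3, Zfp691, Zfp759 and Zfp13, and just outside, with 1 or 2 libraries, lay Zfp174, Zfp963, Zfp418 and Zfp105. Zfp13 entered through G9Gl alone, with 147, 149 and 160 counts against 83 to 95 in WT and 25 to 31 in S1S2. Zfp105 missed it with 73 to 102 counts in G9Gl and at most 24 elsewhere. The 81 genes below the minimum, 20 of them without a count, are not described further.

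In S1S2 cells more Zfp genes went down than up, by small amounts, and few of them by 2-fold. The median log2 fold change of the members against WT was -0.102, beside -0.003 for all 15540 genes tested and 0.000 for the 10949 other genes with the same minimum. Of the members, 181 (65.3%) lay below 0 and 265 (95.7%) within 1 log2 unit of it. In the quasi-likelihood test of edgeR, with p-values adjusted by the method of Benjamini and Hochberg over all genes and a limit of 0.01, 71 members (25.6%) were lower and 22 (7.94%) higher, where 17.6% of all genes tested were lower and 20.3% higher. With the added demand of a 2-fold change, which defines a called gene below, 9 members were called lower and 3 higher. Among all genes tested, 4.34% were called lower and 4.66% higher, and 6.60% of the other genes with the same minimum were called in either direction, against 4.33% of the members. Per library, the members' median log2 ratio to the WT mean was -0.104, -0.090 and -0.088 in S1S2 cells and -0.012, -0.041 and 0.059 in WT, so that the S1S2 libraries lay below all WT libraries.

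G9Gl cells showed a like pattern of many small decreases. The members' median log2 fold change against WT was -0.084, beside -0.007 for all genes tested and 0.003 for the others with the same minimum. Members lower at adjusted p of at most 0.01 numbered 64 (23.1%) and members higher 16 (5.78%), beside 16.0% and 19.0% of all genes tested. Called members numbered 5 lower and 1 higher. Of all genes tested, 3.40% were called lower and 6.77% higher, and of the others with the same minimum 6.98% were called, against 2.17% of the members. The 3 G9Gl libraries had medians of -0.055, -0.092 and -0.075, below all WT libraries. Both mutants were compared with the same WT libraries, so that a shared shift is not independent evidence. GC content of the members was lower than that of the other genes (median 44.1% against 49.3%), and with terms for GC content and length the medians were -0.066 in S1S2 and -0.193 in G9Gl cells.

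**Figure D1:**
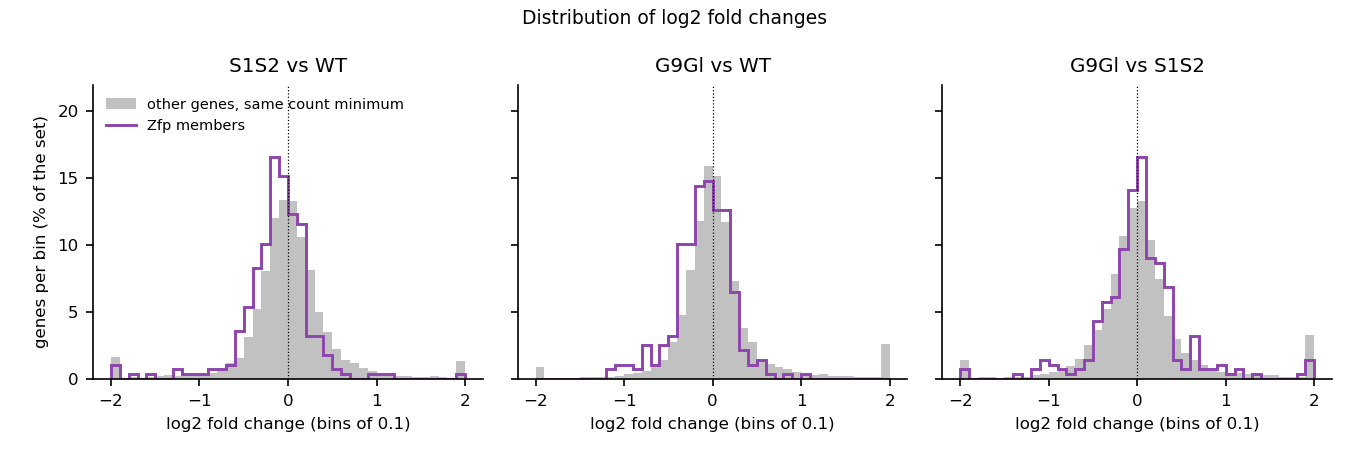
Share of genes (y axis, % of the set) per bin of log2 fold change (x axis, bins of 0.1, values beyond 2 placed in the end bins) for the 277 Zfp members (line) and 10949 other genes with the same count minimum (grey) in each comparison. Against WT the members' line is displaced to the left of the grey area, with medians of -0.102 in S1S2 and -0.084 in G9Gl, and in G9Gl against S1S2 its median is 0.020.

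Zfp345 was called in both mutants against WT, in opposite directions, and both comparisons used the same WT libraries. Zfp667, called lower in S1S2 cells, was also called lower in G9Gl cells with terms for GC content and length (-1.09) and without G9Gl replicate 2 (-1.05). The direct comparison of G9Gl with S1S2 called 9 members higher and 9 lower (6.50% of the members), where 7.97% of all genes tested were called higher and 5.08% lower, and 9.06% of the others with the same minimum were called. At adjusted p of at most 0.01 alone, 51 members were higher and 49 lower in G9Gl than in S1S2 (18.4% and 17.7%, against 21.6% and 21.1% of all genes tested). The median of the direct comparison was 0.020, and it was -0.117 with terms for GC content and length. Together 21 members were called in at least 1 comparison. The minimum shaped these counts: 8 of the 12 members called in S1S2 cells reached 100 counts in libraries of only some genotypes, and so did 8 of the 18 called between the mutants. These are Zfp422, Zfp239, Zfp661, Zfp54 and Zfp947 in both counts (WT and G9Gl), Zfp667 in the first and Zfp677 in the second (also WT and G9Gl), and Zfp345 (WT and S1S2) and Zfp13 (G9Gl) in both. None of them had 100 counts in any library of the group where its mean was lowest, so that their calls are tied to the minimum. Among the 244 members with at least 100 counts in all libraries, 2 were called higher and 2 lower in S1S2 cells, and in the direct comparison 2 were called higher and 7 lower.

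**Figure D2:**
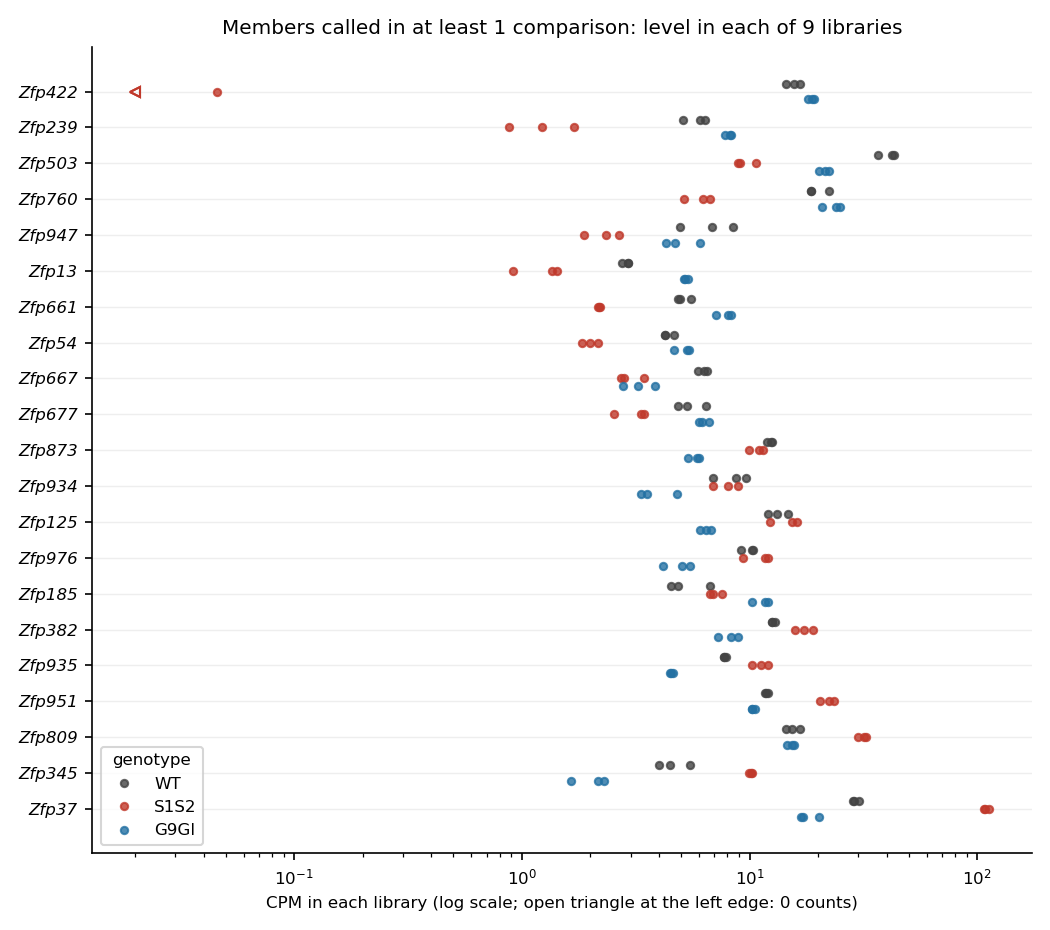
Level in each of 9 libraries (x axis, CPM on a log scale) of the 21 members called in at least 1 comparison (rows, ordered by log2 fold change of S1S2 against WT), with points coloured by genotype and open triangles for libraries with 0 counts. Zfp422 lies at 14.4 to 16.7 CPM in WT and at 0 to 0.0460 in S1S2, and Zfp37 at 28.6 to 30.2 in WT and 107 to 113 in S1S2.

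The largest decrease in S1S2 cells was that of Zfp422 (ENSMUSG00000059878.12, chr6:116624016-116628999, minus strand, GRCm38), which encodes a protein with 5 fingers and no KRAB signature and is known from tooth development. WT libraries had 15.7, 14.4 and 16.7 CPM, G9Gl libraries 19.1, 18.8 and 18.0, and S1S2 libraries 0.0460, 0 and 0. S1S2 cells thus held 1 count in 3 libraries against 1464 in WT, a 1100-fold difference with a 95% counting interval of 197 to 43441 (exact Poisson, counting error only). The gene reached the minimum through WT and G9Gl alone, so that its lower level in S1S2 is tied to that choice. In G9Gl cells its log2 fold change against WT was 0.25 ± 0.07 (SE), which did not pass the limit of 0.01 (adjusted p = 0.0216 by edgeR). The window around its RefSeq start is shown because the gene had the largest change, and it held 32 CpG in 300 bases. That start lies 298 bases inside the GENCODE gene given above, so that the annotations place the promoter differently.
Zfp422, window at the RefSeq start, chr6:116628652-116628951, minus strand: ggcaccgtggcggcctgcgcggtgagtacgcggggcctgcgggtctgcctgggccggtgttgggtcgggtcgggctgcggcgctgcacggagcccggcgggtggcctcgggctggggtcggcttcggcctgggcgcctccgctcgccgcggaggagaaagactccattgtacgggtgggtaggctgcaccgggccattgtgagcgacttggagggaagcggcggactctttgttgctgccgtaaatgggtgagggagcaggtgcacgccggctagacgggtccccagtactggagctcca

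On the same chromosome lay Zfp239 (chr6:117862100-117873291, plus strand), the Mok-2 gene, whose product has 7 fingers by this count and binds DNA and RNA. It was at 6.06, 6.35 and 5.09 CPM in WT, 1.70, 0.875 and 1.22 in S1S2 and 8.25, 8.19 and 7.83 in G9Gl cells. The groups did not overlap, and the log2 fold changes were -2.23 ± 0.28 in S1S2 and 0.47 ± 0.10 in G9Gl cells (adjusted p = 2.06e-08 and 0.00704). It had 24 to 37 counts in the S1S2 libraries and reached the minimum through WT and G9Gl alone, so that its lower level in S1S2 is tied to that choice. Zfp503 (chr14:21983959-21989601, minus strand), also called Nolz1, a regulator of striatal and limb development, was the most abundant of the members that were called lower. Its levels of 42.9, 42.1 and 36.8 CPM in WT were followed by 21.5, 22.4 and 20.2 in G9Gl and 9.10, 8.89 and 10.7 in S1S2 cells. It was thus lower in both mutants, with log2 fold changes of -2.09 ± 0.11 in S1S2 and -0.93 ± 0.08 in G9Gl cells (adjusted p = 2.08e-12 and 1.47e-08), the latter short of the 2-fold limit. Zfp703, its close relative in the NET family, had 16.0 ± 2.45 CPM in WT, 11.8 ± 0.506 in S1S2 and 23.4 ± 2.73 in G9Gl cells, with adjusted p of 0.0026 and 0.000224 against WT.

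KRAB genes outside the large chromosome 17 cluster that were called lower in S1S2 cells were Zfp661 and Zfp667. Zfp661 (chromosome 2) was at 4.83 to 5.51 CPM in WT, 2.16 to 2.21 in S1S2 and 7.11 to 8.32 in G9Gl cells. The 3 groups did not overlap, and the gene was lower in S1S2 (-1.22 ± 0.06) and higher in G9Gl cells (0.62 ± 0.09), with adjusted p = 1.02e-06 and 0.000165. It had 46 to 60 counts in the S1S2 libraries and reached the minimum through WT and G9Gl alone. Its lower level in S1S2 is thus tied to that choice. Zfp667 (chromosome 7) was lower in both mutants, at 5.91 to 6.48 CPM in WT against 2.73 to 3.43 in S1S2 and 2.77 to 3.84 in G9Gl. It had 61 to 75 counts in the S1S2 and 79 to 107 in the G9Gl libraries, and the WT libraries met the minimum by themselves. Its lower level in the mutants is thus tied to that choice. Its log2 fold changes were -1.06 ± 0.11 and -0.92 ± 0.14, and without S1S2 replicate 2 the former fell just short of the 2-fold limit. With terms for GC content and length the latter was -1.09 and without G9Gl replicate 2 it was -1.05, past the limit in both cases.

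A further 3 members were called higher in S1S2 cells. Zfp37 (chr4:62189540-62231047, minus strand), whose product has 12 fingers and no KRAB signature by this count and is known from spermatids and neurons, had 28.7, 28.6 and 30.2 CPM in WT and 108, 113 and 107 in S1S2 cells. In G9Gl cells it had 20.2, 17.2 and 16.9 CPM, below WT in all libraries. Its log2 fold changes were 1.91 ± 0.03 and -0.69 ± 0.09 (adjusted p = 7.64e-14 and 1.37e-07). Zfp345 (chr2:150470991-150485091, minus strand), a KRAB gene with 14 fingers, rose from 4.0 to 5.48 CPM in WT to 9.97 to 10.2 in S1S2 and fell to 1.65 to 2.30 in G9Gl cells. Both changes were called (1.11 ± 0.13 and -1.19 ± 0.19, adjusted p = 1.5e-06 and 5.46e-06). Zfp345 had 47 to 66 counts in the G9Gl libraries and reached the minimum through WT and S1S2 alone. Its lower level in G9Gl is thus tied to that choice. It shares 13.3% of its 75-mers with other annotated genes, so that a part of its reads cannot be placed with certainty. Zfp809 (chr9:22225714-22243354, plus strand) encodes the KRAB protein that recognises the proline tRNA primer binding site of murine leukaemia viruses and recruits Trim28 to it. It stood at 15.4, 14.4 and 16.6 CPM in WT, 14.6, 15.7 and 15.3 in G9Gl and 29.8, 31.8 and 32.4 in S1S2 cells. The S1S2 libraries lay apart from all others (1.02 ± 0.07, adjusted p = 2.04e-09), close to the 2-fold limit, and without WT replicate 2 (0.97) or S1S2 replicate 3 (0.99) the change was no longer called.

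In G9Gl cells 5 of the 6 called members were lower, and 4 of them were KRAB genes, including Zfp345. Zfp873 (chr10:82048123-82064745, plus strand), a KRAB gene with 16 fingers and no 75-mer in common with another gene, was at 12.5, 11.9 and 12.4 CPM in WT, 11.4, 9.95 and 11.0 in S1S2 and 5.97, 5.35 and 5.88 in G9Gl cells. G9Gl libraries lay below all others (-1.10 ± 0.05, adjusted p = 2.88e-08). Zfp934 on chromosome 13 was at 6.91 to 9.67 CPM in WT and 3.34 to 4.81 in G9Gl cells (-1.11 ± 0.21, adjusted p = 1.16e-05). Zfp976 on chromosome 7 was at 9.16 to 10.4 CPM in WT and 4.15 to 5.47 in G9Gl (-1.02 ± 0.13, adjusted p = 2.66e-06). The transcribed pseudogene Zfp125 on chromosome 12 was at 12.1 to 14.8 and 6.04 to 6.79 CPM (-1.06 ± 0.10, adjusted p = 5.08e-07). Without WT replicate 3 the changes of Zfp976 and Zfp125 were -0.98 and -0.97 and no longer called, and Zfp976 was not called without WT replicate 1 (just under 2-fold), without G9Gl replicate 3 (-0.91) or with terms for GC content and length (-0.99) either. Zfp934, Zfp976 and Zfp125 share 18.1%, 10.5% and 22.3% of their 75-mers with other genes, and so, with Zfp345, 4 of the 5 members called lower are uncertain in part. Among the 230 members with at most 10% of shared 75-mers, 2 were called in G9Gl cells, Zfp873 and Zfp185. The neighbours of Zfp934, Zfp808 and Zfp935, had log2 fold changes of -0.89 and -0.78 in G9Gl cells, and all 75-mers of Zfp935 occur in another gene.

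Zfp185 (chrX:72987339-73031543, plus strand) was the member called higher in G9Gl cells. It encodes a LIM domain protein of the actin cytoskeleton, and no C2H2 finger was found in its coding sequence. Its levels were 4.86, 4.50 and 6.67 CPM in WT, 6.67, 6.92 and 7.57 in S1S2 and 11.7, 12 and 10.2 in G9Gl cells (1.08 ± 0.19 in G9Gl, adjusted p = 2.07e-06). It was no longer called without WT replicate 2 (0.97), nor with terms for GC content and length (0.91).

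By chromosome position, 123 members fell into 15 clusters, runs of annotated Zfp genes with gaps of at most 500 kb and at least 4 members. The clusters had 4 to 22 members each, 8 of them lay on chromosomes 2, 6, 8, 9, 13 and 17 and 7 on chromosome 7. The median of the members in clusters, as a log2 fold change, was -0.103 for S1S2 and -0.094 for G9Gl cells, and that of the 154 outside was -0.091 and -0.081. In 10 of the clusters no member was called in either mutant against WT. Over all genes tested, 9.0% were called in S1S2 and 10.2% in G9Gl cells, so few calls are due in clusters of this size. The count of 10 is thus no result about the clusters. One cluster stood apart in S1S2 cells, with a median of -0.535, whereas the other 14 had medians of -0.246 to 0.074. In G9Gl cells the cluster medians ran from -0.306 to 0.092 and none stood apart in this way.

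**Figure D3:**
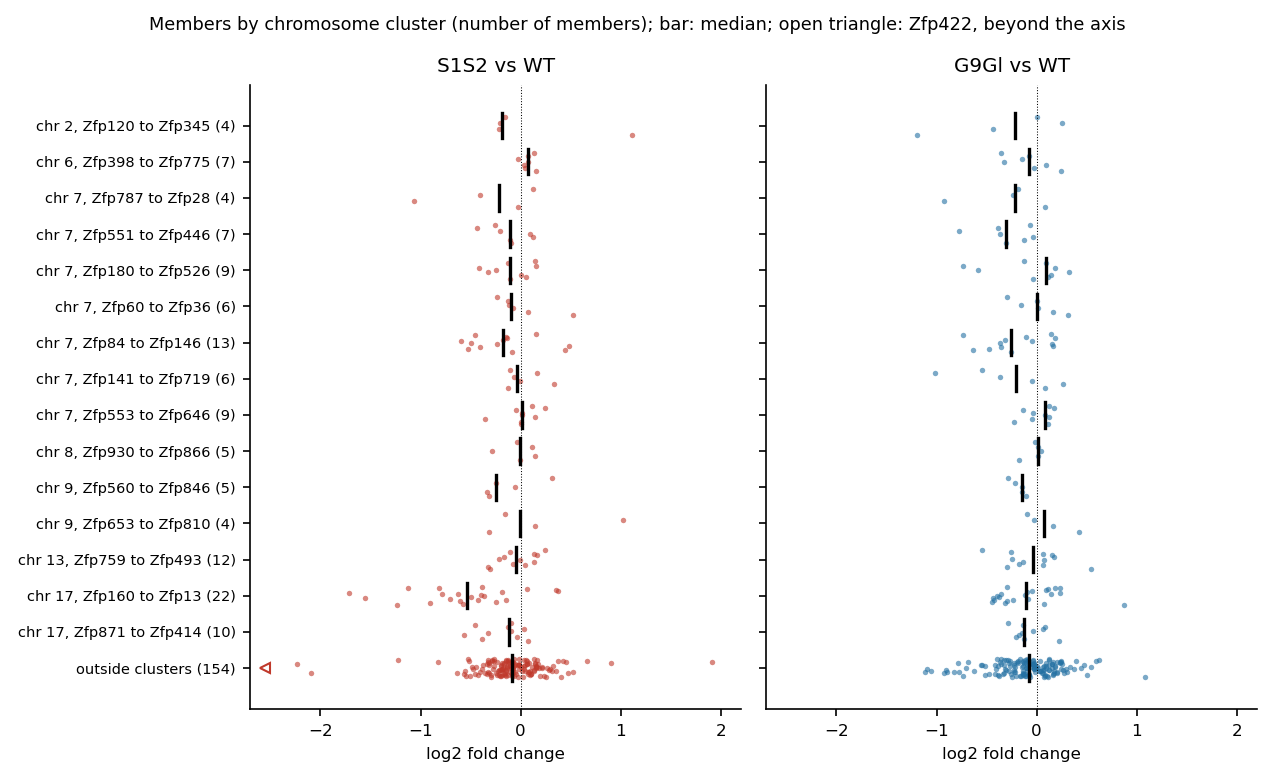
Log2 fold change against WT (x axis) of each member (points) by chromosome cluster (rows, named by first and last member, with the number of members) in S1S2 (left) and G9Gl cells (right), with bars at the medians and an open triangle for Zfp422, which lies beyond the axis at -9.71. The chromosome 17 row from Zfp160 to Zfp13 is displaced to the left in S1S2 cells (median -0.535) and not in G9Gl cells (-0.105).

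That cluster spans chr17:21008903-23599487 (GRCm38), from Zfp160 to Zfp13. All of its 22 annotated genes are members, and 20 have a KRAB signature with up to 1 mismatch. In S1S2 cells 19 of the 22 lay below WT and 16 were lower at adjusted p of at most 0.01, where 17.6% of all genes tested were lower by that rule. The median of its genes' log2 ratios to the WT mean was -0.613, -0.521 and -0.411 in the S1S2 libraries, -0.068, -0.120 and -0.176 in the G9Gl libraries and -0.024, -0.110 and 0.135 in WT. All S1S2 libraries lay below all others. With terms for GC content and length, the S1S2 median was -0.364. No other gene with the minimum lies inside the interval. The 110 other genes up to 5 Mb after it had a median of -0.187 and the 5 up to 5 Mb before it -0.028, and the 17 other members of chromosome 17 had -0.183. By the rule for called genes, 4 of the cluster and 0 in these sets were lower in S1S2 cells (edgeR), where 4.34% of all genes tested were. Of these 4, Zfp760 had at least 100 counts in all libraries, whereas Zfp54 and Zfp947 fell below 100 in S1S2 cells and Zfp13 also in WT, so that their calls are tied to the minimum. By adjusted p of at most 0.01 alone, 16 of the 22 cluster genes (72.7%) were lower, against 52 of the 110 genes after it (47.3%), 2 of the 5 before it and 8 of the 17 other members (47.1%), so that smaller decreases were common along this stretch of the chromosome too.

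The largest decrease of the cluster was that of Zfp760 (chr17:21707741-21725636, plus strand), with 18.7, 18.6 and 22.3 CPM in WT, 5.15, 6.23 and 6.72 in S1S2 and 25, 20.9 and 23.9 in G9Gl cells. S1S2 libraries lay apart from all others, at -1.72 ± 0.14 on the log2 scale (adjusted p = 8.75e-10). Zfp947 was at 6.86, 4.96 and 8.44 CPM in WT and 2.67, 2.33 and 1.88 in S1S2 (-1.56 ± 0.26, adjusted p = 6.36e-06). Zfp54 was at 4.25, 4.26 and 4.64 CPM in WT and 2.16, 2.00 and 1.83 in S1S2 (-1.13 ± 0.08, adjusted p = 5.51e-06), which was -0.99 and no longer called with terms for GC content and length. Zfp13, which lacks the KRAB signature, was at 2.92, 2.74 and 2.93 CPM in WT, 1.43, 0.911 and 1.36 in S1S2 and 5.16, 5.35 and 5.22 in G9Gl cells. Its log2 fold changes were -1.24 ± 0.20 in S1S2 and 0.87 ± 0.03 in G9Gl cells (adjusted p = 2.41e-05 and 6.59e-05), and since it reached the minimum through the G9Gl libraries alone, its higher level there is tied to that choice.

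Below the 2-fold limit, Zfp40 (-0.90 ± 0.14), Zfp677 (-0.82 ± 0.18), Zfp229 (-0.79 ± 0.06) and Zfp994 (-0.71 ± 0.14) were also lower in S1S2 cells, with adjusted p between 5.63e-08 and 0.000197. Not all genes of the interval were lower. Zfp52 and Zfp53 were higher, by 0.37 ± 0.07 and 0.35 ± 0.09 (adjusted p = 0.000306 and 0.0026), and Zfp51 had 16.2 ± 1.5 CPM in WT and 16.9 ± 1.71 in S1S2 cells. These 3 are direct neighbours, between Zfp54 and Zfp948. In G9Gl cells edgeR and DESeq2 called 0 of the 22 against WT, though 13 had an unadjusted edgeR p under 0.05, and log2 fold changes ran from -0.44 for Zfp945 to 0.87 for Zfp13. At adjusted p of at most 0.01 alone, 5 of the 22 (22.7%) were lower and 1 higher in G9Gl cells. Of all genes tested, 16.0% were lower and 19.0% higher by that rule. Directly compared, 5 of the 22 were called higher in G9Gl than in S1S2, namely Zfp760 (1.95), Zfp54 (1.36), Zfp947 (1.12), Zfp677 (1.01) and Zfp13 (2.11), the last of which reached the minimum through G9Gl alone, and 0 were called lower (7.97% and 5.08% of all genes tested). The libraries of S1S2 cells held under 100 counts for all of these but Zfp760. Zfp677 was no longer called without S1S2 replicate 3 (0.89) or G9Gl replicate 3 (0.97), nor Zfp947 without G9Gl replicate 1 (0.96), and neither was called after chromosome medians were removed (0.88 and just under the 2-fold limit) or with terms for GC content and length (0.85 and 0.95).

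**Figure D4:**
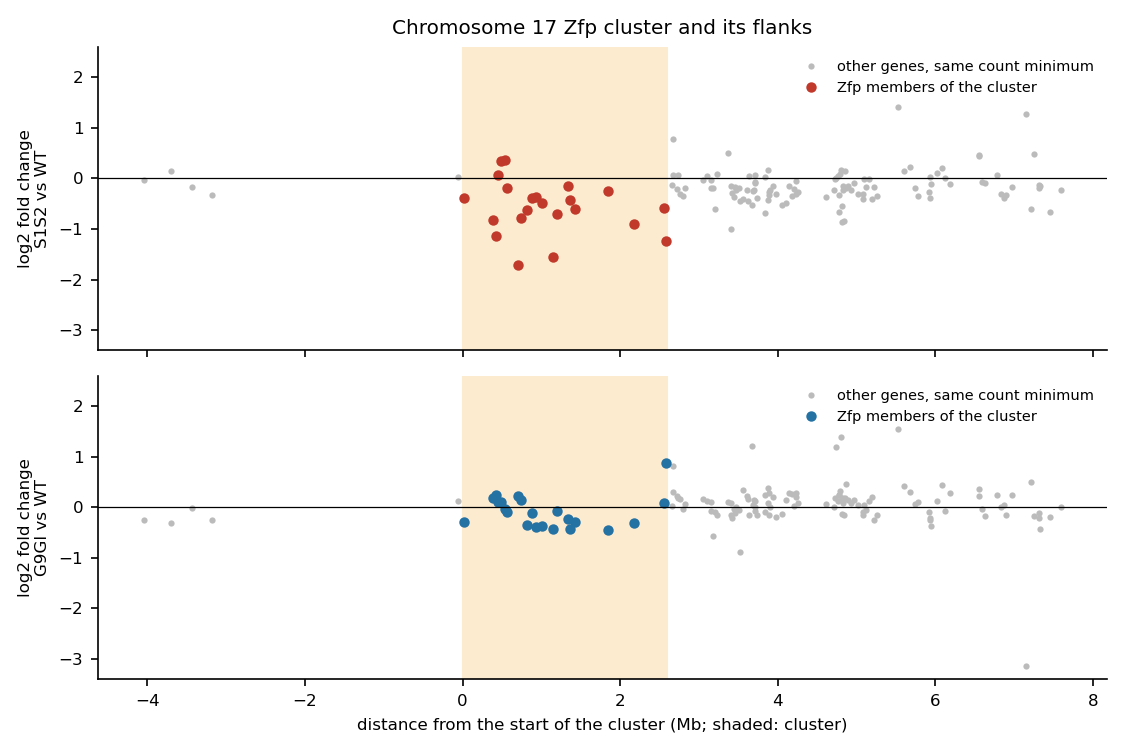
Log2 fold change against WT (y axis) of the 22 Zfp members (large points) and 115 other genes with the same minimum (small grey points) by distance from the start of the chromosome 17 cluster (x axis, Mb, the cluster is shaded) in S1S2 (top) and G9Gl cells (bottom). In S1S2 cells 19 of the 22 members lie below 0, down to -1.72, whereas the genes after the cluster have a median of -0.187.

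Promoters of the 4 cluster genes called lower, and of Zfp52, which was higher, are printed for comparison (RefSeq, GRCm38.p6, 250 bases before to 50 after the start, 5' to 3'). Capitals mark matches, read on either strand, to 2 of the 5 motifs that were searched. The first is the core bound by ETS factors, spelled CCGGAAG. The other is the CCAAT box, which is the core bound by the NFY complex.
Zfp760 promoter, chr17:21707491-21707790, plus strand: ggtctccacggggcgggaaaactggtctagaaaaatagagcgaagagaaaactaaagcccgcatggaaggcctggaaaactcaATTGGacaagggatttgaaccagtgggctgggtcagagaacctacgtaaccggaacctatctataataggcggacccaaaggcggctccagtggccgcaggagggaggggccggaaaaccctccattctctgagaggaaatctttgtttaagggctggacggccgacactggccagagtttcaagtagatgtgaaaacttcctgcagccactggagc
Zfp947 promoter, chr17:22165928-22166227, minus strand: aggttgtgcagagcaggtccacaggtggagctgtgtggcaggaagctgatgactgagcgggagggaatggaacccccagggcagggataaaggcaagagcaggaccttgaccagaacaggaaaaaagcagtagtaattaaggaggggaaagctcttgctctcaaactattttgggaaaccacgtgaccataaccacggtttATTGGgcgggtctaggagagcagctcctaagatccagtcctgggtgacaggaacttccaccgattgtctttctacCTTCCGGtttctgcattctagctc
Zfp54 promoter, chr17:21422977-21423276, plus strand: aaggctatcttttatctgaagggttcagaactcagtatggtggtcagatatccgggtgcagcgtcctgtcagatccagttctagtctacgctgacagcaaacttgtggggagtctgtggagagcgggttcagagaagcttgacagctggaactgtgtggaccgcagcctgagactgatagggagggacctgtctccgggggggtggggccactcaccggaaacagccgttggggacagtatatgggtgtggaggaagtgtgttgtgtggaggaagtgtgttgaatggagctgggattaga
Zfp13 promoter, chr17:23599438-23599737, minus strand: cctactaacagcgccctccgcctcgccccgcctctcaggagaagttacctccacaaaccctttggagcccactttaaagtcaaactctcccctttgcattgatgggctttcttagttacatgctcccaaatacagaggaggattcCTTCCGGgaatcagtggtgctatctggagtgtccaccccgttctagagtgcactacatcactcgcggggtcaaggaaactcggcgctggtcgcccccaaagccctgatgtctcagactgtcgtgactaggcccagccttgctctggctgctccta
Zfp52 promoter, chr17:21535289-21535588, plus strand: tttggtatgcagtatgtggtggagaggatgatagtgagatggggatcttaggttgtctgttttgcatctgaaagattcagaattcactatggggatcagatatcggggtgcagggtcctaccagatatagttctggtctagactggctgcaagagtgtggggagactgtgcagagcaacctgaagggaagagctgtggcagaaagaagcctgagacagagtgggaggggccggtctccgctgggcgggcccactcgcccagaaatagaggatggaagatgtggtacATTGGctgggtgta
The sequences of Zfp760, Zfp947 and Zfp52 hold the NFY core and those of Zfp947 and Zfp13 the ETS core, and none of the 5 motifs was found in that of Zfp54 or of Zfp422. These windows held 12, 6, 8, 12 and 5 CpG in the order printed, and that of Zfp947 lies at a RefSeq start 213 bases inside its GENCODE gene. The 22 promoters matched to 20 genes of the cluster had 3 to 24 CpG with a median of 10, against 15.5 for the 280 promoters of 229 matched members and 21 for the 10661 of other genes with the same minimum. Over the members' promoters the NFY core was present in 49.3%, against 38.2% for the other genes with the same minimum and 37.4% of all 32851 promoters. The ETS core was present in 20.4%, against 18.8% and 8.86%. The YY1 core, spelled AAGATGG, was found in 9.29%, against 7.42% and 6.34% of the same sets of promoters. The motif of ZFP57, spelled TGCCGC, was found in 17.1%, against 19.9% and 11.6% of these sets. The TATA box, spelled TATAAA, was found in 6.79%, against 6.68% and 13.6%. These are matches of letters and not sites.

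Genes with and without a KRAB signature were compared by their counts alone. Of the 123 with an exact signature, 7 were called in S1S2 cells, 5 lower and 2 higher, and their median log2 fold change was -0.111, against -0.098 for the 151 without it. The shares called were 5.69% and 3.31%, both below the 9.0% of all genes tested. In G9Gl cells 4 KRAB genes were called lower and 0 higher, and their median was -0.117 against -0.041. Over all genes tested 3.40% were called lower, so that the count of 4 among 123 is no result about KRAB genes. Outside the chromosome 17 cluster, the 132 genes with up to 1 mismatch in the signature had medians of -0.094 in S1S2 and -0.118 in G9Gl cells. The 7 SCAN genes held no called member in either mutant.

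Several members act in known silencing or imprinting pathways. Of 15 such factors listed, 11 were members and Zfp708, Zfp42, Zfp819 and Zfp936 were not. Zfp809 was the only one called, and at adjusted p of at most 0.01 alone 2 were higher and 4 lower in S1S2, and 1 higher and 2 lower in G9Gl cells. Over all genes tested, 9.0% were called in S1S2 cells and 20.3% were higher and 17.6% lower by p alone. For G9Gl cells these shares were 10.2%, 19.0% and 16.0%, so that the counts are no result about the list. Zfp57, which with Trim28 keeps imprints methylated, was at 48.8 ± 1.58 CPM in WT, 41.4 ± 0.852 in S1S2 and 46.1 ± 1.71 in G9Gl cells, lower in S1S2 (-0.24 ± 0.03, adjusted p = 0.000972). Zfp445, its partner at imprints, had 74.8 ± 4.19, 70.7 ± 2.46 and 73.7 ± 1.72 CPM and did not pass the test in either mutant (adjusted p = 0.198 and 0.748). Zfp568, a repressor of a placental Igf2 transcript, was higher in S1S2 cells (66.6 ± 1.70 against 47.8 ± 3.40 CPM, 0.48 ± 0.06, adjusted p = 1.24e-06). Zfp462, whose protein binds Glp, moved in opposite directions, from 42.3 ± 2.70 CPM in WT to 35.1 ± 0.486 in S1S2 and 63.8 ± 4.40 in G9Gl cells (adjusted p = 0.00151 and 2.25e-07). Zfp644, whose product joins the G9a and Glp complex, had 187 ± 8.86, 167 ± 2.53 and 200 ± 9.71 CPM, lower in S1S2 by 0.17 log2 units (log2 fold change -0.17 ± 0.04, adjusted p = 0.00678).

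Of 12 mesenchymal and developmental factors listed, 6 were members, Zfp423 and Zfp521 not among them, and Zfp503 was the only one called. Zfp469, a gene tied to collagen fibres of the cornea, had 17.5 ± 4.48 CPM in WT and 10.7 ± 2.49 in G9Gl cells (-0.71 ± 0.30, adjusted p = 0.00135). All 10 RNA-binding, ribosomal and spindle genes and all 14 general transcription factors listed were members, and 0 were called by edgeR in either mutant. With 9.0% of all genes tested called in S1S2 and 10.2% in G9Gl cells, calls in lists of this size are few in any case, and these counts are no result about the lists. Within the former, Zfp622, a ribosome biogenesis factor, was higher in S1S2 cells (86.8 ± 3.75 against 62.6 ± 2.45 CPM, adjusted p = 4.79e-07) and Zfp207 lower in both mutants (291 ± 7.84 CPM in WT, 262 ± 8.05 in S1S2 and 235 ± 1.52 in G9Gl). Zfp598, the sensor of collided ribosomes, had 57.1 ± 1.77 CPM in WT and 46.5 ± 2.02 in S1S2 (adjusted p = 0.00031). Of the transcription factors, 7 of 14 were lower in G9Gl cells at adjusted p of at most 0.01 and 0 higher, where 23.1% of all members and 16.0% of all genes tested were lower. The change of Zfp263 was the largest of these (38.7 ± 0.477 against 27.9 ± 1.13 CPM, -0.47 ± 0.04, adjusted p = 1.3e-06).

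Genes of the proteins that KRAB factors work with, and of the H3K9 enzymes, formed a list of 30, all of which were tested. In S1S2 cells 2 were called higher (Atf7ip and Atf7ip2) and 1 lower. In G9Gl cells the count was 0 higher and 2 lower, and the lower genes of both mutants were targeted ones. The share called over all genes tested was 9.0% in S1S2 and 10.2% in G9Gl cells, so that these counts of called genes lie near the background. At adjusted p of at most 0.01 alone, 7 of the 30 were higher and 9 lower in S1S2 cells, against 20.3% and 17.6% of all genes tested. In G9Gl cells 3 were higher and 11 lower by that rule, the targeted genes included, against 19.0% and 16.0%. Trim28, the corepressor that KRAB domains bind, had 377 ± 7.89 CPM in WT, 380 ± 6.97 in S1S2 and 364 ± 11.3 in G9Gl cells (adjusted p = 0.81 and 0.336). Setdb1 was lower in S1S2 cells, at 41.3 ± 0.506 against 53.5 ± 1.38 CPM (-0.37 ± 0.02, adjusted p = 2.05e-05). Atf7ip, which stabilises Setdb1 in the nucleus, rose from 109 ± 4.85 to 223 ± 1.43 CPM in S1S2 cells (1.03 ± 0.04, adjusted p = 4.81e-12), which lay just under the 2-fold limit without WT replicate 3 and at 0.98 to 0.99 with terms for GC content and length or with chromosome medians removed. Its relative Atf7ip2 was at 0.0522 ± 0.0473 CPM in WT, 1.15 ± 0.023 in S1S2 and 0 in G9Gl cells. No WT library held more than 3 counts of Atf7ip2, so that the size of its change is uncertain. It was not tested with at least 10 counts in every library. Fam208a, of the HUSH complex, was higher in S1S2 (121 ± 4.76 CPM) and lower in G9Gl cells (60.6 ± 3.35) than in WT (80.8 ± 7.57), with adjusted p = 4.89e-07 and 2.98e-05.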

How the data were processed

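RNA-seq of 9 libraries was analysed, 3 each of WT, S1S2 and G9Gl MEFs. The study's methods describe stranded total RNA libraries and read pairs trimmed with cutadapt. STAR 2.5.2b aligned these to GRCm38 with settings advised for TEtranscripts, which counted genes and repeats. For gene levels grouped by promoter mark, the methods name counts from snakePipes. The RNA-seq shown in the study is of Eset single and compound mutants, not of S1S2 or G9Gl cells alone. That these libraries went through the same steps is assumed. The release of the annotation, the use of strand and the multimapper mode are not given in the sources used here, so reads of near-identical, overlapping or antisense genes are uncertain. The deposited values are raw counts per Ensembl gene.

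Symbols and positions came from GENCODE M21 (GRCm38), which matched 47224 of 47937 genes and not 713. Genes kept by filterByExpr (15540) entered the quasi-likelihood test of edgeR 4.0.16 in R 4.3.3 (glmQLFit and glmQLFTest, TMM, all 9 libraries in 1 fit), the test behind each adjusted p unless another is named. A gene was called where the adjusted p did not exceed 0.01 and the change was 2-fold or more. SEs of log2 fold changes came from the spread of log2 CPM (prior count 2) between replicates. The common biological coefficient of variation was 5.36%. Libraries held 21319778 to 32157623 counts, and 3 counts, the floor, equal 0.0923 to 0.141 CPM. Reads carry no molecular identifiers, so intervals and floors cover counting error only.

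Fingers, KRAB and SCAN signatures were counted by pattern in translated GENCODE coding sequences. Shared sequence is the share of a gene's 75-mers found in other annotated genes. Promoters came from RefSeq (GRCm38.p6). Members, lists and clusters were chosen with earlier results of these data known. Named were, for each mutant against WT, up to 12 called members with the largest changes each way, up to 6 each way between the mutants, called members of described clusters and members of the role lists. Same-numbered libraries did not deviate together (correlations -0.0686 to 0.124 over 9 pairs), and replicate numbers were not taken as pairs. Alternatives were DESeq2 1.42.0, other scalings, filters and thresholds, a replicate block, GC and length terms, chromosome medians, fewer genotypes, other member rules and each library left out. Of the member rules, 2, without the chromosome 17 cluster and with at most 10% of shared 75-mers, were added after seeing the data. Values by repeat element were not analysed here.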

Additional observations from a re-analysis of the deposited data

Results flagged for a closer look

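The 18 members called between the mutants are listed because their response to the 2 kinds of enzyme loss differed by a test of the difference itself, G9Gl against S1S2. Each mutant is taken to be a single clone, so that enzyme and clone cannot be told apart. Of the 18, Zfp422, Zfp239, Zfp661, Zfp54, Zfp947 and Zfp677 reached 100 counts in WT and G9Gl libraries only, Zfp345 in WT and S1S2 only and Zfp13 in G9Gl only, so that the choice of members favoured a difference in these 8. Higher in G9Gl, as log2 fold changes, were Zfp422 (9.96, with 1 count in all S1S2 libraries, so that the size is uncertain), Zfp239 (2.70), Zfp13 (2.11), Zfp760 (1.95), Zfp661 (1.84), Zfp54 (1.36), Zfp503 (1.17), Zfp947 (1.12) and Zfp677 (1.01). Lower in G9Gl were Zfp37 (-2.6), Zfp345 (-2.31), Zfp935 (-1.30), Zfp125 (-1.19), Zfp976 (-1.18), Zfp951 (-1.09), Zfp382 (-1.09), Zfp809 (-1.04) and Zfp934 (-1.03). Zfp934 was no longer called without S1S2 replicate 2, G9Gl replicate 2 or G9Gl replicate 3 (-0.94, -0.94 and -0.96). For Zfp37, Zfp345, Zfp935, Zfp382, Zfp661, Zfp13 and Zfp239 the change against WT took opposite signs in S1S2 and G9Gl, and both changes passed an adjusted p of 0.01. Zfp951 was at 11.8 ± 0.221 CPM in WT, 22.1 ± 1.64 in S1S2 and 10.4 ± 0.232 in G9Gl cells, and Zfp382 at 12.7 ± 0.207, 17.4 ± 1.59 and 8.16 ± 0.806. Zfp935 was at 7.76 ± 0.0922, 11.1 ± 0.870 and 4.53 ± 0.0727 CPM, and all of its 75-mers occur in another annotated gene.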

How the results depend on the processing

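Of 36 called member comparisons, 12 stayed past the threshold in every alternative that tested them and 0 reversed. The 2 of Zfp422 are among these 12 and were not tested with at least 10 counts in every library, which leaves 10 that held in all. Leaving out 1 library ended 8 calls: Zfp667 and Zfp809 in S1S2, Zfp125, Zfp185 and Zfp976 in G9Gl, and Zfp677, Zfp934 and Zfp947 between the mutants. The counts then ranged from 11 to 12 in S1S2, 4 to 7 in G9Gl and 16 to 19 between the mutants, and the median for G9Gl against S1S2 from -0.002 to 0.030. DESeq2 ended 0 of the calls. Of 144 named comparisons that were not called, 5 passed the threshold in an alternative: Zfp951 in S1S2, Zfp667 in G9Gl, and Zfp469, Zfp703 and Zfp873 between the mutants. The pathway partners called higher in S1S2 fell from 2 to 1 without WT replicate 3, with GC and length terms (with or without the replicate block), with chromosome medians removed, with glmTreat and with at least 10 counts in every library. A test against a 2-fold change (glmTreat) called 5, 0 and 7 members in S1S2, G9Gl and between the mutants (1 in G9Gl at its unadjusted p under 0.05), 1 in the chromosome 17 cluster in S1S2 and 1 pathway partner in G9Gl. A limit of 0.05 on the adjusted p, with no fold limit, called 122, 120 and 144 members, 19 of the cluster in S1S2, and 17 (S1S2) and 19 (G9Gl) partners. Members with 100 counts in all 9 libraries gave 4 calls in S1S2, and 9 between the mutants (2 higher and 7 lower) with a median of -0.006. With at most 10% of shared 75-mers, 2 were called in G9Gl. GC and length terms ended 5 calls (Zfp54 in S1S2, Zfp185 and Zfp976 in G9Gl, Zfp677 and Zfp947 between the mutants) and gave medians of -0.193 in G9Gl, -0.117 between the mutants and -0.364 for the cluster in S1S2, and with the replicate block -0.192, -0.114 and -0.363. Removing chromosome medians gave -0.024 between the mutants and ended 2 calls there, Zfp677 and Zfp947, and fitting without a composition factor ended that of Zfp809 in S1S2 (0.99). The replicate block alone kept 12, 6 and 17 of the called members, and lost Zfp677 between the mutants. The cause of these shifts was not tested beyond the smaller sets of members.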
